A study of Homo sapiens with 6 samples.

Results

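Glutathione synthesis and cystine uptake were followed through 9 genes, chosen by name for their role in making, recycling and breaking down glutathione and in bringing in its cysteine. The genes were GCLC, GCLM, GSS, GSR, SLC7A11, SLC3A2, GGT1, GGCT and OPLAH, out of 58884 in the deposited matrix, and each stood on 1 row. RNA was sequenced from untreated KYSE450 cells, a human esophageal squamous cell carcinoma (ESCC) line with wild-type NRF2, and from KEAP1null-KYSE450 cells, made from them with CRISPR-Cas9 and a guide to exon 2 of KEAP1. There were 3 libraries of each line. KEAP1null-KYSE450 is a line expanded from a single cell, so anything else that sets this clone apart from its parental line cannot be told apart from the loss of KEAP1. The labels do not say whether the libraries of a line came from separate cultures, so p-values measure only the spread between these libraries, which may be technical. Library numbers follow the order of the columns, which give no number of their own.

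Glutathione is a tripeptide of glutamate, cysteine and glycine and the main small thiol of the cell. Glutamate-cysteine ligase, built from the catalytic subunit GCLC and the modifier subunit GCLM, joins glutamate and cysteine in the step that usually limits synthesis, and glutathione synthetase (GSS) then adds glycine. Most of the cysteine of cultured cells enters as cystine through system xc-, in which SLC7A11 is the transporter and SLC3A2 is the heavy chain that carries it to the membrane. NRF2, the factor that KEAP1 marks for degradation, is known to drive several of these genes through antioxidant response elements in their regulatory regions.

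KEAP1, the edited gene, had normalized counts of 5760, 5226 and 5146 in KYSE450 libraries and 5737, 4906 and 5317 in KEAP1null-KYSE450 libraries, so the level of its mRNA did not separate the lines, and counts per gene do not show an edit. NFE2L2, the gene of NRF2, was lower in all 3 KEAP1null-KYSE450 libraries, with a log2 fold change of -0.47. A normalized count is the number of reads of a gene after division by a size factor of its library. The libraries summed to between 54829313 and 57380170 normalized counts, and Pearson's r of log2 values across genes, which are not independent replicates, was between 0.984 and 0.989 within a line and between 0.924 and 0.936 across lines. All 8 squamous epithelial markers looked at were expressed in both lines, with at least 1667 normalized counts in every library, but their levels differed. KRT6A, a keratin of activated epithelium, went from between 64933 and 81897 in KYSE450 libraries to between 2540 and 3028 in KEAP1null-KYSE450 libraries, and KRT17 from between 47071 and 58504 to between 1667 and 1893. KRT5, a basal keratin, was higher, with 174377 to 250359 against 519548 to 648677. TP63 was lower, with 18888 to 24150 against 13086 to 16389. CDH1, PERP and SFN were also lower in every KEAP1null-KYSE450 library than in any KYSE450 library, and DSG3 overlapped between the lines. Markers of immune and endothelial cells stayed under 70 normalized counts per gene in every library, and of the 4 fibroblast markers COL1A1 alone was above that, at 333 to 839. The part of these markers in the results below was not tested.

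Of the 9 genes, 8 passed a filter on low values, which was a mean of at least 10 normalized counts. GCLC, GCLM, SLC7A11 and GSR rose in KEAP1null-KYSE450 cells, SLC3A2 fell, and GSS, GGCT and OPLAH did not pass the test. In bulk RNA, fewer cells with a transcript and less of it per cell cannot be told apart. A gene was called when the adjusted p from limma was under 0.05 and the absolute log2 fold change was at least 1. Among all 16701 genes tested, 12.2% were called higher and 5.98% were called lower. The median log2 fold change was 0.69 over the 8 genes and 0.004 over all genes tested. The plot of normalized counts by library shows the lines apart for 5 genes and overlapping for the other 3. Such separation was common, as 28.4% of all genes tested lay higher in every KEAP1null-KYSE450 library and 29.3% lay lower in every one.

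**Figure D1:**
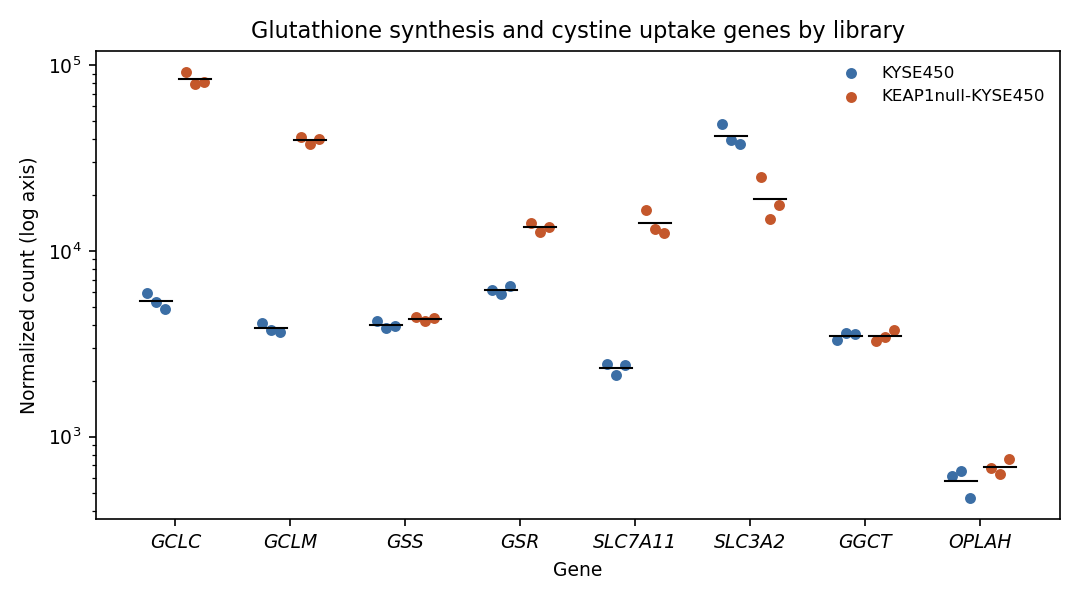
Normalized counts (log axis) of the 8 genes past the filter in the 3 KYSE450 libraries (blue) and the 3 KEAP1null-KYSE450 libraries (orange), with a black bar at each mean. GCLC, GCLM, GSR and SLC7A11 lie higher in every KEAP1null-KYSE450 library, SLC3A2 lies lower in every one, and the points of GSS, GGCT and OPLAH overlap.

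Both subunits of glutamate-cysteine ligase rose. GCLC, spanning 53497341 to 53616970 of chromosome 6 (minus strand) in hg38, had normalized counts of 5937, 5291 and 4836 in KYSE450 libraries and 91736, 79454 and 81402 in KEAP1null-KYSE450 libraries. Every KEAP1null-KYSE450 library was above every KYSE450 library, an arrangement that 28.4% of all genes tested showed in this direction. The mean was 15.7 times higher, or 3.98 ± 0.11 as a log2 fold change with its standard error (limma, adjusted p = 1.8e-11, after Benjamini and Hochberg).

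GCLM, spanning 93885199 to 93909456 of chromosome 1 (minus strand), had 4104, 3765 and 3673 normalized counts in KYSE450 libraries and 40992, 37572 and 40083 in KEAP1null-KYSE450 libraries. The groups again did not overlap. The mean was 10.3 times higher, or 3.36 ± 0.09 on the log2 scale (limma, adjusted p = 2.1e-11).

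GCLC lay further above its KYSE450 level than GCLM did. The ratio of GCLC to GCLM normalized counts was 1.45, 1.41 and 1.32 in KYSE450 libraries and 2.24, 2.11 and 2.03 in KEAP1null-KYSE450 libraries, so all libraries of the clone lay above all libraries of the parental line. The ratio was 1.53 times higher in KEAP1null-KYSE450 cells, a difference of 0.61 on the log2 scale (SD 0.07 in each line, n = 3 each; exact permutation test, two-sided, p = 0.1, the smallest that 3 against 3 libraries allow). After quantile normalization the difference was 0.48.

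The sequences upstream of the start sites are shown because NRF2 binds antioxidant response elements, whose core is TGACNNNGC. RefSeq promoter windows of GRCh38.p14, each of 250 bases before and 50 bases after a start, were at hand for 4 of the 9 genes (GCLC, GCLM, SLC3A2 and GGT1), in 7 windows, all identical to hg38. GSS, GSR, SLC7A11, GGCT and OPLAH had none. The 250 bases before the start are printed for GCLC and GCLM, the genes with the largest rises, and for SLC3A2, which fell, each from 5′ to 3′ on the strand of the gene. Capitals mark a match to the core on either strand.
GCLC, minus strand, chr6:53545102-53545351: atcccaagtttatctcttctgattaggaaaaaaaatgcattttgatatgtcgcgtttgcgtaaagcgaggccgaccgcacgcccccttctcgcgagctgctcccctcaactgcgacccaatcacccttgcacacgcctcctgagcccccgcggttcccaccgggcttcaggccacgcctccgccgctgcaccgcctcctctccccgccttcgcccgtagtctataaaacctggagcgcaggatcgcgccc
GCLM, minus strand, chr1:93909431-93909680: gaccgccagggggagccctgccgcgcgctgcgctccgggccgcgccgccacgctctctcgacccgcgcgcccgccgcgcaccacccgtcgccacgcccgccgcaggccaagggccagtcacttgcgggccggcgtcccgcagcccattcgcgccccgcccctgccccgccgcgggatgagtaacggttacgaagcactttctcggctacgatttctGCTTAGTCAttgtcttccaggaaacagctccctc
SLC3A2, plus strand, chr11:62881449-62881698: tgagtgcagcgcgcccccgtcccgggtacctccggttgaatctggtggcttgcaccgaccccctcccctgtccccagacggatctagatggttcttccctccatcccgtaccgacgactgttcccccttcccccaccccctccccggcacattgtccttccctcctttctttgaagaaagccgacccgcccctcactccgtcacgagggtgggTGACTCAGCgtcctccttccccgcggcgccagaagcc

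The GCLM window held the core from base -34 to base -26 of the start, on the opposite strand, where it reads GCTTAGTCA on the strand of the gene. The GCLC window, before the start of the main transcript, held no match. In SLC3A2 the core lay from -37 to -29 as TGACTCAGC, in which the AP-1 element TGACTCA makes up the first 7 bases. This window belongs to a start 803 bases downstream of the main one, and the other 2 SLC3A2 windows held no match. The same SLC3A2 window held TGATGNAA, the core of the amino acid response element that ATF4 binds, on the opposite strand from 38 to 45. The remaining match to TGACNNNGC was in 1 of 2 GGT1 windows. Of 35116 promoter windows in the table, 13.3% held TGACNNNGC, 4.95% held TGACTCA, 3.62% held TGATGNAA and 0.268% held TGACTCAGC, counting both strands. A match of letters is not a binding site, and the absence of a match covers only this window.

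Glutathione synthetase was not called. GSS, spanning 34928432 to 34956027 of chromosome 20 (minus strand), had 4174, 3841 and 3960 normalized counts in KYSE450 libraries and 4377, 4174 and 4361 in KEAP1null-KYSE450 libraries. The highest KYSE450 library lay just above the lowest KEAP1null-KYSE450 library. The log2 fold change was 0.11, with a 95% interval from -0.08 to 0.30 (adjusted p = 0.32 from limma), so a change as large as that of either ligase subunit lay far outside the interval. After quantile normalization the value was 0.27 (adjusted p = 0.018), and over 16 other settings the adjusted p was between 0.018 and 1.0.

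GSR, the glutathione reductase that returns oxidized glutathione to its reduced form with NADPH, rose to just past the fold threshold. Its gene spans 30678066 to 30727846 of chromosome 8 on the minus strand. KYSE450 libraries had 6144, 5885 and 6493 normalized counts and KEAP1null-KYSE450 libraries 14087, 12679 and 13479, with no overlap. It rose by 1.12 ± 0.09 on the log2 scale (limma, adjusted p = 8.5e-07), and it was not called when tested for a change beyond 2-fold (adjusted p = 0.83, the highest of 16 other settings).

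**Figure D2:**
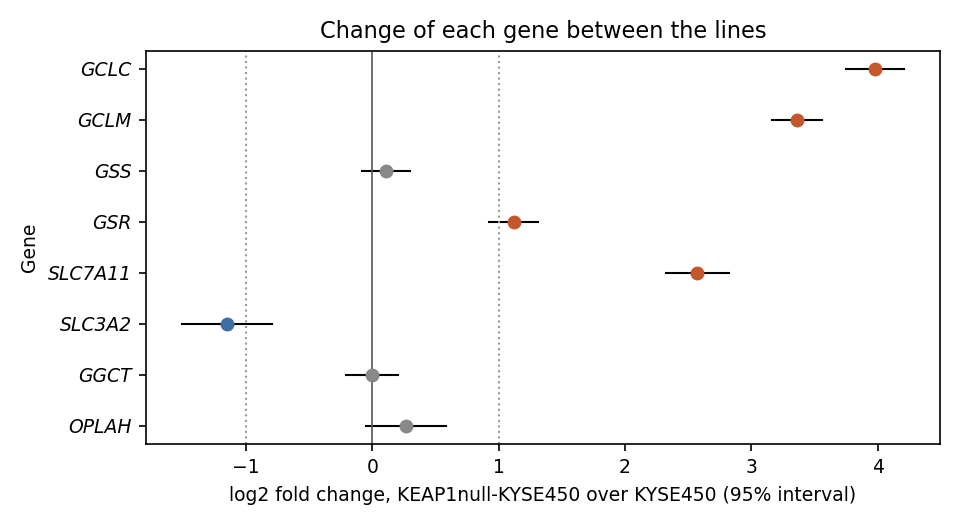
Log2 fold change of KEAP1null-KYSE450 over KYSE450 for the 8 genes past the filter, with 95% intervals from limma and dotted lines at -1 and 1 (orange, called higher; blue, called lower; grey, not called). GCLC and GCLM lie at 3.98 and 3.36, SLC7A11 at 2.57 and SLC3A2 at -1.15, while the intervals of GSS, GGCT and OPLAH include 0.

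The 2 chains of system xc- moved in opposite directions. SLC7A11, the cystine and glutamate exchanger spanning 138164097 to 138242349 of chromosome 4 (minus strand), had 2452, 2141 and 2440 normalized counts in KYSE450 libraries and 16496, 13135 and 12491 in KEAP1null-KYSE450 libraries. All 3 libraries of the clone were above all 3 of the parental line. The mean was 5.99 times higher, or 2.57 ± 0.11 on the log2 scale (limma, adjusted p = 3.1e-09).

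SLC3A2, the heavy chain, spanning 62856004 to 62888880 of chromosome 11 (plus strand), had 48029, 39384 and 37759 normalized counts in KYSE450 libraries and 24860, 14847 and 17689 in KEAP1null-KYSE450 libraries. The first library of each line was the highest of its line, and the lines did not overlap, as for 29.3% of all genes tested in this direction. SLC3A2 fell by 1.15 ± 0.16 on the log2 scale (limma, adjusted p = 1.0e-04), to a mean 2.18 times lower. Without KEAP1null-KYSE450 library 2 the log2 fold change was -0.98 (adjusted p = 6.8e-04), just short of the threshold, and after quantile normalization it was -0.9995. It was also not called when tested for a change beyond 2-fold (adjusted p = 1.0, with a range from 1.5e-05 to 1.0 over 16 other settings).

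The ratio between the 2 chains also separated the lines. The ratio of SLC7A11 to SLC3A2 normalized counts was 0.0511, 0.0544 and 0.0646 in KYSE450 libraries and 0.664, 0.885 and 0.706 in KEAP1null-KYSE450 libraries. It was 13.2 times higher in the clone, a difference of 3.72 on the log2 scale (SD 0.18 and 0.22, n = 3 each; exact permutation test, two-sided, p = 0.1, the smallest possible). Leaving out each library in turn gave 3.60 to 3.82.

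**Figure D3:**
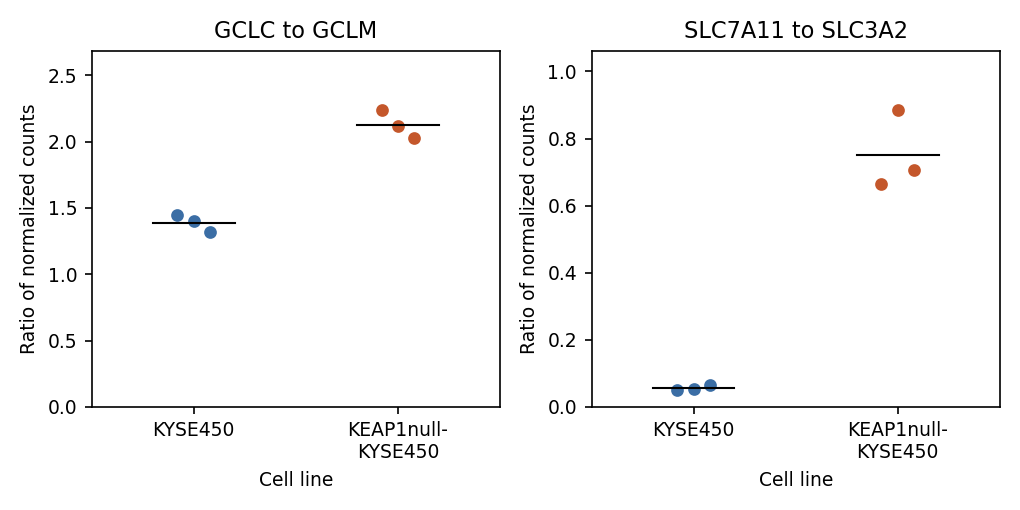
Ratio of normalized counts per library, GCLC to GCLM on the left and SLC7A11 to SLC3A2 on the right, with 3 libraries per line and a black bar at the mean; both axes start at 0. The left ratio lies between 1.32 and 1.45 in KYSE450 and between 2.03 and 2.24 in KEAP1null-KYSE450 cells, and the right one is at most 0.0646 in KYSE450 and at least 0.664 in KEAP1null-KYSE450 cells.

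SLC3A2 is not specific to cystine uptake, since it also carries SLC7A5, SLC7A6, SLC7A7, SLC7A8 and SLC7A10 to the membrane. SLC7A5, the LAT1 transporter of large neutral amino acids, had 135638, 95230 and 93198 normalized counts in KYSE450 libraries and 50795, 30384 and 36746 in KEAP1null-KYSE450 libraries. The first library was again the highest of each line, and SLC7A5 fell by 1.47 ± 0.19 on the log2 scale (limma, adjusted p = 3.9e-05). It was not called when tested for a change beyond 2-fold. The ratio of SLC7A5 to SLC3A2 was 2.82, 2.42 and 2.47 in KYSE450 libraries and 2.04, 2.05 and 2.08 in KEAP1null-KYSE450 libraries.

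Levels of different genes were set side by side as normalized counts per kilobase of merged exons. SLC7A11 made up 0.867%, 1.07% and 1.24% of the summed level per kilobase of these 6 light chains in KYSE450 libraries and 13.3%, 16.7% and 13.8% in KEAP1null-KYSE450 libraries. SLC7A5 made up 96.6% ± 0.5 of it in KYSE450 cells and 81.0% ± 2.5 in KEAP1null-KYSE450 cells (SD, n = 3 each). The summed level of the light chains was 3.57 ± 0.29 times that of SLC3A2 in KYSE450 cells and 3.41 ± 0.10 times in KEAP1null-KYSE450 cells (SD, n = 3 each), so the heavy chain and the sum of its partners were lower by a similar factor. These shares were computed after the values had been seen and carry no test. With the length of the main transcript in place of merged exons the SLC7A11 share was 1.01% and 13.9%, and the light chains came to 1.10 and 1.05 times SLC3A2.

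**Figure D4:**
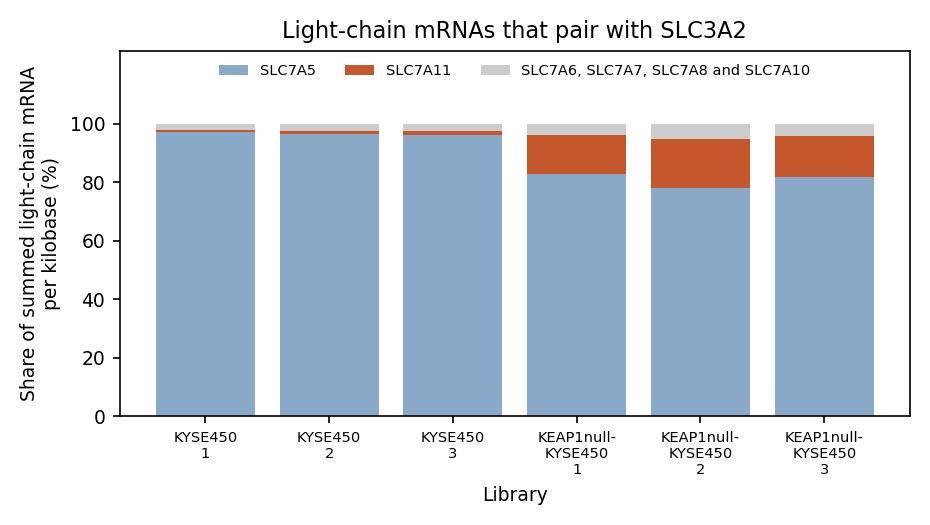
Share of the summed light-chain mRNA level per kilobase of merged exons (%) held by SLC7A5 (blue), SLC7A11 (orange) and the other 4 light chains (grey) in each of the 6 libraries. SLC7A11 holds at most 1.24% in KYSE450 libraries and 13.3% to 16.7% in KEAP1null-KYSE450 libraries.

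None of the 3 genes of glutathione breakdown was called. GGCT, the gamma-glutamylcyclotransferase that releases 5-oxoproline from gamma-glutamyl amino acids, had 3306, 3611 and 3549 normalized counts in KYSE450 libraries and 3273, 3419 and 3747 in KEAP1null-KYSE450 libraries. The ranges overlapped throughout, and the log2 fold change was -0.005, with a 95% interval from -0.21 to 0.20 (adjusted p = 0.97 from limma). Its sign changed with the setting. GGCT spans 30496621 to 30504841 of chromosome 7 on the minus strand and shares 27.7% of its exon bases with ENSG00000281039, a gene on the same strand that was listed at 0 in every library.

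OPLAH, the 5-oxoprolinase that turns 5-oxoproline back into glutamate, was the least abundant of the genes tested. It spans 144051266 to 144063965 of chromosome 8 on the minus strand and had 611, 650 and 470 normalized counts in KYSE450 libraries and 677, 631 and 755 in KEAP1null-KYSE450 libraries. The log2 fold change was 0.26, with a 95% interval from -0.05 to 0.58 (adjusted p = 0.15 from limma). The lines overlapped, and without a single library the value lay between 0.12 and 0.36.

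GGT1, the gamma-glutamyltransferase that cleaves glutathione at the cell surface, was not tested. No KYSE450 library had a read of it, and KEAP1null-KYSE450 libraries had 0, 1.02 and 1.01 normalized counts, below the 2.77 to 3.21 normalized counts that 3 reads are worth, so neither its expression nor a difference was detectable at this depth. That floor covers counting error only. GGT1 spans 24594811 to 24629005 of chromosome 22 (plus strand), and 56.5% of its exon bases are also exon of ENSG00000286070, which reached at most 1.07 normalized counts. GGT1 also has close relatives in the genome, and how reads shared between genes were counted is not given in the sources used here.

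The order of the genes by level per kilobase of merged exons differed between the lines. In KYSE450 cells SLC3A2 came first with 6528 ± 864, followed by GGCT with 2189 ± 101 and GSR with 1714 ± 84.7 (SD, n = 3 each). GCLM, GSS and GCLC came next with means of 709, 647 and 621, and neighbours among these overlapped between libraries. SLC7A11 with 243, OPLAH with 130 and GGT1 with 0 came last, each below all libraries of the gene before. In KEAP1null-KYSE450 cells GCLC led with 9770 ± 766 and GCLM followed with 7289 ± 327 (SD, n = 3 each). GSR, SLC3A2 and GGCT had means of 3724, 2993 and 2183, and neighbours among them overlapped. SLC7A11 stood at 1456, above GSS with 698. With the length of the main transcript SLC3A2 stayed first in KYSE450 cells and came after GCLC in KEAP1null-KYSE450 cells, and GSS stood above both ligase subunits in KYSE450 cells, so the order of GSS, GCLM and GCLC there rests on the length chosen. In KEAP1null-KYSE450 cells GSS then stood above SLC7A11, with 2255 against 1456 and no overlap between libraries, so that order also reversed.

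The wider pathway was read from 6 lists with 65 genes, of which 53 passed the filter. Past both thresholds 2 were higher and 1 was lower, against 12.2% and 5.98% of all genes tested, and the median log2 fold change was -0.16. With an adjusted p under 0.05 alone, 12 were higher and 18 lower, where the shares of all genes tested were 24.3% and 25.5%.

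The list of SLC3A2 partners and other carriers of cystine or cysteine held 2 of these calls. Of its 10 genes 6 were tested, with 1 called higher and 1 lower and a median log2 fold change of 0.07. Besides SLC7A5, SLC1A4, a carrier of small neutral amino acids, was called. It rose from 368 ± 34.1 to 930 ± 206 normalized counts (SD, n = 3 each), which is 1.32 on the log2 scale (limma, adjusted p = 3.3e-05), and it too was not called when tested for a change beyond 2-fold. Below the fold threshold lay SLC7A8, the LAT2 transporter, at 0.84, SLC7A6 at -0.41, SLC1A5, the main glutamine carrier, at -0.46 and SLC1A1 at 0.56. SLC7A10 was listed at 0 in every library.

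In the list of glutamate and glycine supply all 10 genes were tested, with a median log2 fold change of -0.19. GLS2, the liver-type glutaminase, was called and rose from 99.7 ± 22.6 to 375 ± 23.7 normalized counts (SD, n = 3 each), which is 1.92 on the log2 scale (limma, adjusted p = 8.2e-06). GLUL, which makes glutamine from glutamate, lay at -0.85 on the log2 scale, GLUD1, the glutamate dehydrogenase, at -0.60 and the serine enzyme PSAT1 at 0.68. These last 3 had an adjusted p under 0.05 but a log2 fold change short of 1.

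No gene was called in the other 4 lists. The glutathione breakdown list had 6 of 13 genes tested and a median log2 fold change of -0.35. In it CHAC1 and CHAC2, which cleave glutathione inside the cell, lay at -0.70 and -0.43, CNDP2, a dipeptidase for cysteinylglycine, at -0.65, and GGT7 at 0.74. The cysteine list had 11 of 12 genes tested and a median of -0.08, with CTH, which makes cysteine from cystathionine, at 0.41, CBS at 0.07, CSAD, which leads cysteine towards taurine, at 0.95 and GOT1 at -0.73. Among the 10 glutaredoxins, glyoxalases and mitochondrial carriers the median was -0.16, with 1 gene higher and 3 lower at an adjusted p under 0.05. GLRX lay at 0.75, GLRX3 at -0.50 and GLO1 at -0.68. The 10 genes of ATF4 and amino acid stress had a median of -0.15, with 1 gene higher and 3 lower at an adjusted p under 0.05. There ATF4 itself, a factor known to act on SLC7A11, SLC3A2 and CHAC1, lay at -0.36, SESN2 at 0.71, DDIT3 at -0.42 and ASNS at 0.18 (adjusted p = 0.59 from limma). All other genes named in this paragraph except CBS had an adjusted p under 0.05. Apart from SLC7A5, SLC1A4 and GLS2, the genes named from the lists were chosen after their values had been seen.

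Some of the tested genes around GCLC on chromosome 6 were also higher in KEAP1null-KYSE450 cells. The 10 tested genes on each side had starts from -880 kb to 3410 kb along the chromosome from the start of GCLC. Of these 20 neighbours, 11 were called higher and none lower, and the median log2 fold change of the 20 was 1.49. Among them 5 (GSTA2, GSTA9P, GCLC-AS1, ENSG00000231683 and LINC01564) had a KYSE450 mean under 10 normalized counts and passed the filter through KEAP1null-KYSE450 libraries alone, so that they had to differ. Without these 5, a choice made after the values had been seen, 6 of 15 were called higher and the median was 0.43. Of the genes left out, GCLC-AS1, ENSG00000231683 and LINC01564 overlap the annotated span of GCLC itself rather than lying beside it. Over all genes tested, which include others that passed in this way, 12.2% were called higher. The medians over 20 neighbours were 0.21 around GCLM, -0.01 around GSS, 0.23 around GSR, 0.01 around SLC7A11, 0.08 around SLC3A2, 0.32 around GGCT and -0.07 around OPLAH.

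The higher genes around GCLC included glutathione S-transferases of the alpha class, enzymes that join glutathione to electrophiles. The starts of GSTA4, GSTA1 and GSTA2 lay at -550, -741 and -782 kb from that of GCLC. GSTA4 rose from 1409 ± 252 to 4361 ± 277 normalized counts, GSTA1 from 49.6 ± 4.5 to 651 ± 108 and GSTA2 from 7.33 ± 1.98 to 205 ± 32.3 (SD, n = 3 each). GSTA1 and GSTA2 are near-identical relatives, and the counting may have divided reads between the pair. The lncRNA ENSG00000231683, which shares 529 exon bases with GCLC on the same strand, was at the floor in KYSE450 libraries and had a mean of 1649 in KEAP1null-KYSE450 libraries, at least 547-fold higher. The antisense gene GCLC-AS1 was at least 12.5-fold higher, LINC01564 had a log2 fold change of 4.44 and KLHL31 of 2.41. No source used here says that strand was used in counting, so reads of GCLC and GCLC-AS1 cannot be told apart where their exons share 305 bases. Strand could not tell reads of GCLC and ENSG00000231683 apart in the 529 bases they share. Whether reads counted for ENSG00000231683 came from GCLC transcripts was not tested.

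Abundant genes in the same stretch were mostly not called. Of the 9 neighbours with a KYSE450 mean of at least 1000 normalized counts only GSTA4 was called, and the other 8 had log2 fold changes between -0.35 and 0.69. Of these 8, 3 were higher with an adjusted p under 0.05, namely DST at 0.69, TMEM14A at 0.43 and ENSG00000216775 at 0.42, and ELOVL5, a fatty acid elongase, was lower at -0.35. FBXO9, CILK1, LRRC1 and FAM83B lay at -0.10, 0.14, -0.20 and -0.26. Of the 11 neighbours below that mean 10 were called, among them the 5 with a KYSE450 mean under 10 that had to differ. The KYSE450 mean is itself part of the comparison, so this split favours higher calls below it and decides nothing about the region. The split at 1000 was chosen after the values had been seen, and copy number was not measured.

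**Figure D5:**
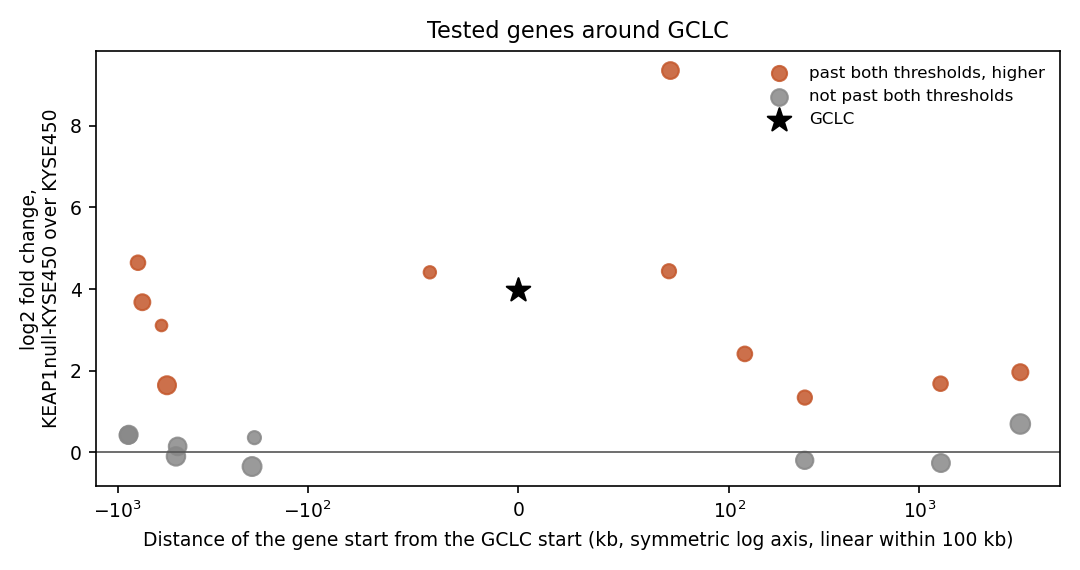
Log2 fold change of KEAP1null-KYSE450 over KYSE450 (vertical axis) for the 10 tested genes on each side of GCLC against the distance of their start from the start of GCLC (kb, symmetric log axis, linear within 100 kb). Larger points have a higher mean, orange points were called higher and the star is GCLC. Of 20 neighbours 11 are orange, and the grey points lie between -0.35 and 0.69. GCLC-AS1, ENSG00000231683 and LINC01564 overlap the annotated span of GCLC.

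Among the other genes tested, the profiles over the 6 libraries most like that of GCLC belonged to PRKG1, CABYR and MAOA, with root mean square differences of 0.09, 0.10 and 0.13 on the log2 scale after centring. Among the profiles most like that of SLC7A11 were those of ABCG2 (0.11), an efflux transporter, and SLC9A3R1 (0.12). The log2 fold changes of these genes were 3.98, 3.83 and 4.01 for the first set and 2.56 and 2.55 for the second. Because the genes were picked on these same values, fold changes near those of GCLC and SLC7A11 follow from the choice. Shared regulation was not tested.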

How the data were processed

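RNA of 3 KYSE450 and 3 KEAP1null-KYSE450 libraries was analysed from the matrix that the authors deposited, whose values are a signal per gene, read counts divided by 1 factor per library. Per the study's methods and the submitters' processing notes, the authors aligned reads to hg38 with STAR and counted them with featureCounts (version 1.5.1). Identifiers in the matrix are from Ensembl, although a RefSeq annotation is named in the methods. In every library 100% of values lay within 0.1 of a whole multiple of its smallest step. Dividing by this step gave 53027359 to 61543442 reads in each of 4 libraries. For the remaining 2, with steps of 1.01, reads were not recovered, although their values met the same condition. No column belonged to another sample.

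The lines were compared with limma (version 3.58.1, R 4.3.3, eBayes with trend) on log2(normalized count + 1) for genes whose mean reached 10, two-sided, with Benjamini-Hochberg adjustment over all genes. Fold changes on this scale understate the change of low genes. The authors used DESeq2 on counts, and here the deposited values are normalized and reads were recovered for 4 of 6 libraries, so DESeq2 was kept as an alternative. Alternatives were other pseudocounts, filters, scalings and call rules, each library left out, and edgeR (version 4.0.16) and DESeq2 (version 1.42.0) on the reads of 4 libraries. The tests were tried on simulated data. Positions and lengths came from gencode v44 of hg38, which held 16630 of 16701 identifiers tested. Named by rule were the 9 genes, KEAP1, NFE2L2, overlapping genes, up to 3 genes per list and direction past both thresholds, and the 3 genes nearest to GCLC and to SLC7A11 in profile, of which 1 is not reported here. Other list genes, the genes around GCLC and the cell markers were named outside this rule. The members and lists were chosen with earlier results of these data known.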

Additional observations from a re-analysis of the deposited data

How the results depend on the processing

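GCLC, GCLM and SLC7A11 were called higher under all 16 other settings. GSR stayed called under 15 and was not called in a test against a fold change of 2 (log2 fold change 1.12), which left 3 of the 9 genes called higher. SLC3A2 stayed lower under all 16, but was not called, leaving 0 of the 9 genes called lower, after quantile normalization (-0.9995), in the test against a fold change of 2 (-1.15) and without KEAP1null-KYSE450 library 2. With each library left out, its value was between -1.36 and -0.98, and 0 to 1 genes were called lower. GSS and OPLAH were called under none. GGCT, not called anywhere, had a positive sign with the same total per library (0.0272), after quantile normalization (0.1328) and without one of 4 libraries, with -0.0595 to 0.0380 over all libraries left out. The difference in the GCLC to GCLM ratio was 0.48 after quantile normalization. The cause of these shifts was not tested.

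Over all genes, 2045 were called higher and 999 lower. Called higher were 875 with a mean of at least 100, 4060 with the adjusted p alone and 626 in the test against a fold change of 2, and the last 2 settings gave 4251 and 395 lower. On the recovered reads of 4 libraries, edgeR called 1826 higher and 872 lower and DESeq2 1623 and 877. Quantile normalization gave 1388 higher and 1289 lower, so that the share of higher calls was 51.8% in place of 67.2%, and it was 56.2% with a mean of at least 100. The lists changed mainly with the adjusted p alone, which gave 2 higher and 4 lower for glutathione breakdown, 3 and 1 for cysteine, 3 and 3 for carriers, 2 and 4 for glutamate and glycine, 1 and 3 for glutaredoxins, and 1 and 3 for ATF4. With no filter 1 gene of glutathione breakdown was higher. This was GGT6, with 0, 1.01 and 0 normalized counts in KYSE450 libraries and 3.69, 6.12 and 5.04 in KEAP1null-KYSE450 libraries, close to the floor of 3 reads. In the test against a fold change of 2 the carriers had 0 higher and 0 lower, and with a library left out the cysteine list had 0 to 1 higher. Without the 5 genes around GCLC that had a KYSE450 mean under 10, 6 of its neighbours were called higher with a median log2 fold change of 0.43. This alternative and those of transcript length and of the light-chain shares were added after the data were seen, and over the last of these the SLC7A11 share differed by 12.5 to 14.2 percentage points. No paired analysis was possible because the columns carry no replicate numbers.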
